A study of Mus musculus with 2 samples.

Results

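The cells described here are T cells with abundant Nkg7 and Ccl5 transcripts in the injured mouse carotid artery. They were chosen by their transcripts: at least 2 UMIs over the CD3 genes Cd3d, Cd3e and Cd3g, and at least 10 UMIs over Nkg7 and Ccl5. A UMI marks 1 captured RNA molecule. Cells also had no Rag1, Rag2 or Ptcra UMI, at most 1 UMI over Il17a, Il23r and Cd163l1, no Cd79a UMI and at most 3 UMIs over C1qa, C1qb and C1qc. The rule took 263 of 8009 cells at 4 weeks after injury, which is 3.28% (95% exact Clopper-Pearson interval 2.90 to 3.70), and 124 of 5427 cells at 2 weeks, which is 2.28% (1.90 to 2.72). Of cells with at least 2 CD3 UMIs and no Rag1, Rag2 or Ptcra UMI, members were 18.5% at 4 weeks (16.5 to 20.7) and 24.7% at 2 weeks (20.9 to 28.7), so the order of the libraries turns with the cells counted as the whole. In all, 387 of 13436 cells were members.

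The study measured single-cell RNA in 1 library at 28 days and 1 library at 14 days after a guide wire had stripped the endothelium of the carotid artery, a model of intimal hyperplasia. All mice were male C57BL/6J, stated to be 8 weeks old, with 18 mice named in the design for each time, so each library appears to stand for pooled animals that cannot be separated. The labels disagree on the vessel: some fields name the carotid artery and the extraction text speaks of aortic grafts. Adventitia was dissected from the inner layers, tissue was digested with papain, and live nucleated cells were sorted. No uninjured artery was analysed here, and with 1 library per time the time after injury and the library cannot be told apart. Comparisons between times therefore carry no test, and their intervals cover counting error only.

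Cytotoxic lymphocytes kill target cells by releasing perforin, which opens the target's membrane, and granzymes, the proteases that enter and start cell death. Naive and central memory T cells circulate through lymphoid organs with the help of the chemokine receptor CCR7, while effector and resident memory cells in tissue largely lack it and carry other receptors such as CXCR6. NKG7 is a granule membrane protein of cytotoxic cells, and CCL5 is a chemokine that memory CD8 T cells and NK cells store and secrete.

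Ctsw, Cxcr3, Cd160 and Klrc1 were given with the label of these cells and not used by the rule. They were chosen with earlier results of these data known, so their shares are a description and no independent check. Ctsw, a cathepsin of cytotoxic lymphocytes (chr19:5465043-5468507, mm10), was found in 89.0% of members at 4 weeks and 83.1% at 2 weeks. Cxcr3, a receptor for interferon-induced chemokines (chrX:101731535-101734269), was found in 59.3% and 58.1%, and Cd160, a receptor of cytotoxic cells, in 31.9% and 28.2%. Klrc1, which encodes the inhibitory receptor NKG2A, was found in 31.9% at 4 weeks and 58.1% at 2 weeks. These 4 markers were therefore present in both libraries, with Klrc1 in a smaller share at 4 weeks. They are not particular to members. In the 45 NK-type cells at 4 weeks, described below, Ctsw was found in 88.9%, Cxcr3 in 26.7%, Cd160 in 20.0% and Klrc1 in 31.1%. In the 14 at 2 weeks the shares were 78.6%, 57.1%, 28.6% and 35.7%. Perforin and granzymes are the core of the word cytotoxic. As described below, perforin was found in a minority of members in both libraries, and granzymes in a minority at 4 weeks. The name is therefore kept for the rule and not as a statement on killing.

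The genes that chose the cells are given as a description. Nkg7 (chr7:43437073-43438249) reached 1080 CPM, UMIs per 1000000 UMIs of all members of a library, at 4 weeks and 1633 CPM at 2 weeks. Ccl5 (chr11:83525778-83530518) reached 4313 CPM at 4 weeks and 6496 CPM at 2 weeks. In fibroblasts, which should lack Nkg7, its level was 1.42 CPM at 4 weeks and 0.906 CPM at 2 weeks. A member had a median of 46 Nkg7 and Ccl5 UMIs at 4 weeks and 53 at 2 weeks, and a median of 15 and 17.5 CD3 UMIs.

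The threshold on Nkg7 and Ccl5 ran through a continuous range of cells at 4 weeks. There, 50 members had 10 to 14 UMIs of the pair and 118 T cells just outside had 5 to 9, against 14 and 16 cells at 2 weeks. At 4 weeks Ccr7 was found in 70.0% of the cells just inside and 82.2% of those just outside, and Cd8b1 in 80.0% and 91.5%. The CD3 threshold separated cells more sharply: 4 members at 4 weeks and 3 at 2 weeks had 2 or 3 CD3 UMIs, and 14 and 6 cells with 1 CD3 UMI and enough Nkg7 and Ccl5 lay outside. Members had a median of 9586 UMIs and 2362 genes at 4 weeks and of 7986 UMIs and 2479.5 genes at 2 weeks. No member had a barcode among the 8 that the libraries share.

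Promoters of 4 genes are shown because they stand for the sides of the description that follows: Nkg7 for the rule, Gzmb and Cxcr6 for genes with fewer transcripts at 4 weeks, and Klf2 for a gene with more. Each is the 250 bases before the gene's start in RefSeq's annotation of GRCm38.p6, 5′ to 3′ on the gene's strand, at chr7:43436888-43437137 (plus), chr14:56262335-56262584 (minus), chr9:123806227-123806476 (plus) and chr8:72318812-72319061 (plus). Capitals mark every match, on either strand, to 4 motifs: TCACACC of T-box factors such as T-bet and Eomes, TGTGGT of Runx factors, TGANTCA of AP-1 and GGGCGGG, the GC box.
Nkg7: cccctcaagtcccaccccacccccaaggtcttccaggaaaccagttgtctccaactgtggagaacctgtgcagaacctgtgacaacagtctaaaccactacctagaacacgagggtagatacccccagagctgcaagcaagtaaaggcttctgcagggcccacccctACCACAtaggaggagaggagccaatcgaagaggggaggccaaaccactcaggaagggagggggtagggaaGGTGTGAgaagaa
Gzmb: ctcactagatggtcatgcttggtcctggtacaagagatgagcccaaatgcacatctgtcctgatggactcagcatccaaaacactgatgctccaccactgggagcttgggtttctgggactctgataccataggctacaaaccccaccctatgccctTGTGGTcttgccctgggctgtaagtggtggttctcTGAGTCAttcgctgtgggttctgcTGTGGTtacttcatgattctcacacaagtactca
Cxcr6: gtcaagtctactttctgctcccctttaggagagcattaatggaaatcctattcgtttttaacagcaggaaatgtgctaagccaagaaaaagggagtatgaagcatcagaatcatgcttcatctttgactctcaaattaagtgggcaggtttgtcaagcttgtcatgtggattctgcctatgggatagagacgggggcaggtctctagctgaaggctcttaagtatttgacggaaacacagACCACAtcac
Klf2: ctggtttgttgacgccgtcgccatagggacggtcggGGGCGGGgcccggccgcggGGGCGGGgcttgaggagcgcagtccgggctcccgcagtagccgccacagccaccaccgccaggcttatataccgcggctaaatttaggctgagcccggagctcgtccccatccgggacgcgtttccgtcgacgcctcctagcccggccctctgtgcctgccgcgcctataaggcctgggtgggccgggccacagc

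The window of Nkg7 held 1 T-box match, 6 bases before RefSeq's start, and 1 Runx match. GENCODE, whose positions are given for genes here, starts Nkg7 at base 43437073, inside the window, so by GENCODE the T-box match lies within the gene; it starts Klf2 at base 72319033 and Cxcr6 at base 123806475, also inside their windows. The window of Gzmb held 2 Runx matches and 1 AP-1 match between them, and that of Cxcr6 held 1 Runx match, 4 bases before RefSeq's start. The window of Klf2 held 2 GC boxes and none of the other 3 motifs. Over 32851 promoter windows of the same length, 3.33% held the T-box letters, 14.0% the Runx letters, 6.75% the AP-1 letters and 23.4% the GC box. A match describes letters only and does not show that a factor binds there.

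Most members carried the CD8 coreceptor, which binds MHC class I and marks most conventional cytotoxic T cells. Shares of cells with a transcript depend on depth, so each cell was thinned at random to 4900 UMIs, which left 236 members at 4 weeks and 113 at 2 weeks and dropped 27 and 11 shallower ones. Cd8a or Cd8b1 was then found in 72.0% of members at 4 weeks (65.8 to 77.7) and 69.0% at 2 weeks (59.6 to 77.4), and without thinning in 76.0% and 71.8%. In fibroblasts thinned alike, whose cells should lack CD8, the share was 2.40% at 4 weeks and 3.80% at 2 weeks.

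Cd4, the coreceptor of helper T cells, was found in 5.93% of thinned members at 4 weeks (3.28 to 9.75) and 18.6% at 2 weeks (11.9 to 27.0), and without thinning in 9.51% and 19.4%. Thinned fibroblasts had Cd4 in 0 of 500 cells at 4 weeks, which allows up to 0.735%, and in 0.400% at 2 weeks. Macrophages had 3.70% and 6.60%, but they express some Cd4 in their own right and so do not stand for cells that lack it. The share of members at 4 weeks was near that of macrophages and above that of fibroblasts. Members with Cd4 and no CD8 transcript made up 3.81% at 4 weeks and 15.0% at 2 weeks. Members with neither coreceptor made up 24.2% at 4 weeks (18.8 to 30.1) and 15.9% at 2 weeks (9.72 to 24.0), and these 2 intervals overlap.

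**Figure D1:**
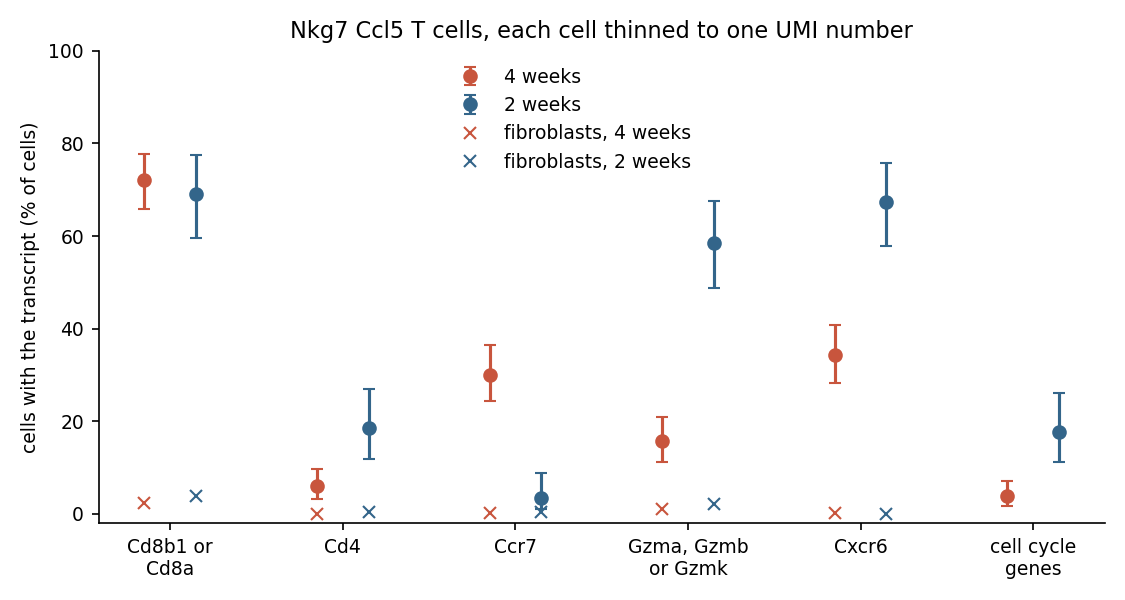
Share of Nkg7 Ccl5 T cells with the named transcripts, in percent of cells, after thinning each cell to 4900 UMIs, with 236 cells at 4 weeks (red) and 113 at 2 weeks (blue). Bars are exact 95% intervals for counting error and crosses are fibroblasts thinned alike. CD8 was at 72.0% and 69.0%, while Ccr7 was at 30.1% at 4 weeks and 3.54% at 2 weeks and any of 3 granzymes at 15.7% and 58.4%.

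Of the gene lists, 5 of 14 measured naive and egress genes were past 2-fold higher in members at 4 weeks than in members at 2 weeks, while 7 of 16 granule genes and 12 of 14 division genes were past 2-fold lower. Of 6775 genes with at least 50 UMIs over both sets of members, 198 (2.92%) were at least 2-fold higher at 4 weeks and 524 (7.73%) at least 2-fold lower, each with an interval of the ratio that leaves out 0 on the log2 scale. The median ratio of all these genes was -0.27 (log2, 4 over 2 weeks). Scaling by edgeR's TMM factors adds 0.26 to every log2 ratio, brings that median close to 0 and turns the split into 357 higher and 304 lower genes. The count of higher genes was 121 without the cells of highest Scrublet doublet score, 123 without cycling members, and 111 without members that held transcripts of other cells.

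Genes of naive and central memory cells and of egress from tissue had ratios above 0, a minority of them past 2-fold. Of 15 such genes, 14 were measured, 5 were past 2-fold higher, none was past 2-fold lower, and all 14 had ratios above 0, with a list median of 0.62.

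Ccr7, the receptor that guides T cells to lymph nodes (chr11:99144196-99155077), reached 99.1 CPM at 4 weeks and 28.3 CPM at 2 weeks, with a log2 ratio of 1.81 (1.29 to 2.37). Unthinned, 46.0% of members at 4 weeks and 7.26% at 2 weeks had a Ccr7 UMI. Klf2, a transcription factor that keeps T cells quiescent and sustains egress receptors, reached 515 CPM at 4 weeks and 218 CPM at 2 weeks, with a log2 ratio of 1.24 (1.05 to 1.44). The window printed above for Klf2 belongs to a gene found in 85.6% of members at 4 weeks and 57.3% at 2 weeks. Dapl1 was at 86.1 CPM and 35.8 CPM, but 1 cell held 41.9% of its UMIs at 2 weeks.

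Other genes of this group differed by less. Tcf7, a transcription factor of naive and memory T cells, had a log2 ratio of 0.59 (0.35 to 0.83), Lef1, its relative, 0.48 (0.21 to 0.76), and Il7r, the receptor chain for the survival cytokine IL-7, 0.60 (0.42 to 0.80). S1pr1, the receptor that leads lymphocytes out of tissue, was at 118 CPM at 4 weeks and 88.3 CPM at 2 weeks, a log2 ratio of 0.42 (0.09 to 0.75). These 4 genes were short of 2-fold. Outside the list, Il6ra, the IL-6 receptor chain of resting T cells, was at 48.8 CPM and 8.33 CPM (2.55, 1.63 to 3.65).

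Further genes among the 12 highest by the naming rule were Nsg2 at 2.62 (1.88 to 3.45), Treml2 at 2.04 (1.31 to 2.85), Pde2a, a cyclic nucleotide phosphodiesterase, at 1.91 (1.22 to 2.68) and Itm2a at 1.44 (0.85 to 2.09). Pik3ip1, an inhibitor of PI3-kinase signalling, was at 1.34 (0.85 to 1.87), Sidt1 at 1.33 (0.96 to 1.73), Kbtbd11 at 1.27 (0.87 to 1.68) and Cmah, an enzyme of sialic acid synthesis, at 1.27 (0.84 to 1.71). Each of these, like Ccr7, Dapl1 and Klf2, was found in at least 22.1% of members at 4 weeks.

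Granule genes were past 2-fold lower at 4 weeks in part. Of 16 measured genes of the list, 7 were past 2-fold lower, 1 was past 2-fold higher and 8 were past neither, with a median of -0.74. Gzmb, the granzyme that cleaves caspases (chr14:56258838-56262260), was at 61.9 CPM at 4 weeks and 474 CPM at 2 weeks, a log2 ratio of -2.94 (-3.20 to -2.69). It was found in 11% of members at 4 weeks, where 1 cell held 34.3% of its UMIs, and in 46.0% at 2 weeks.

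Gzma, a granzyme abundant in effector cells and NK cells, was at 269 CPM at 4 weeks and 1314 CPM at 2 weeks (-2.29, -2.42 to -2.16). Gzmk, the granzyme of an early memory state, was at 26.5 CPM and 134 CPM (-2.34, -2.76 to -1.93). Fasl, the ligand that triggers death through Fas, was at 19.4 CPM and 128 CPM (-2.73, -3.21 to -2.26), and was found in 15.2% of members at 4 weeks and 57.3% at 2 weeks. These 4 effector genes were lower at 4 weeks both in level and in the share of cells.

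Gzma differed from the rest in where its transcripts lay. At 2 weeks, 29 cycling members held 87.6% of the Gzma UMIs, at 3024 CPM, and the 95 other members were at 263 CPM (228 to 303). At 4 weeks, 24 cycling members were at 641 CPM, from 2 cells, and the 239 others at 219 CPM (200 to 238). Without cycling members the log2 ratio of Gzma was -0.27, near the median of all genes at -0.22, while that of Gzmb was -2.36, Gzmk at -2.14 and Fasl at -2.80.

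Inhibitors that shield killer cells from their own granzymes were lower too. Serpinb9, which inhibits granzyme B, was at 30.9 CPM at 4 weeks and 142 CPM at 2 weeks (-2.20, -2.60 to -1.82), and Serpinb6b was at 47.3 CPM and 175 CPM (-1.89, -2.21 to -1.56). Prf1, perforin itself (chr10:61297833-61304680), differed little: it was at 29.4 CPM at 4 weeks and 37.5 CPM at 2 weeks (-0.35, -0.89 to 0.21), in 24.3% and 23.4% of members. Gzmm, a granzyme with its own cleavage preference, ran the other way, with 38.4 CPM at 4 weeks and 13.3 CPM at 2 weeks (1.53, 0.76 to 2.39).

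Killer lectin-like receptors, which sense MHC class I and its relatives, were partly lower at 4 weeks. Of 11 measured genes of the list, 5 were past 2-fold lower at 4 weeks and none past 2-fold higher, with a median of -0.98. Klrc1 was at 63.7 CPM at 4 weeks and 183 CPM at 2 weeks (-1.52, -1.82 to -1.23), and Klrc2, its activating relative, at 66.3 CPM and 148 CPM (-1.16, -1.47 to -0.85). Klrd1, the CD94 chain that pairs with both, was at 183 CPM and 208 CPM (-0.18, -0.41 to 0.04), so over all members it differed less than its partners. That value mixes opposite directions. In members with at least 2 Cd8a and Cd8b1 UMIs the ratio of Klrd1 was -0.69 (-0.95 to -0.43). In members with no such UMI it was 1.12 (0.58 to 1.70), at 226 CPM and 104 CPM.

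Klrg1, a receptor of terminal effector cells, was at 14.9 CPM at 4 weeks and 96.6 CPM at 2 weeks (-2.70, -3.25 to -2.17), and 1 cell held 40.0% of its UMIs at 4 weeks. Without cycling members, which held 68.1% of its UMIs at 2 weeks, its ratio was -1.63. Any gene of the Klra (Ly49) family was found in 25.8% of thinned members at 4 weeks (20.4 to 31.9) and 9.73% at 2 weeks (4.96 to 16.8). That share thus ran opposite to Klrc1, Klrc2 and Klrg1, as did the ratios of Klra1 at 0.78 (0.04 to 1.59), Klra6 at 0.93 (0.00075 to 1.97) and Klra7 at 0.39 (-0.16 to 0.96), but not that of Klra9 at -0.98 (-1.59 to -0.37). Members of the Klra, Klrc and Ly6c families are near-identical copies, so the split of reads among their genes is uncertain.

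Cytokines and chemokines ran both ways, with 1 of 8 measured genes past 2-fold higher and 3 past 2-fold lower. The list median was -0.14 and turns to 0.13 with TMM scaling. Ifng, interferon-gamma, which activates macrophages (chr10:118441046-118445892), was at 42.5 CPM at 4 weeks and 103 CPM at 2 weeks (-1.28, -1.66 to -0.90). Ccl4, an inflammatory chemokine, was at 59.3 CPM and 195 CPM (-1.72, -2.02 to -1.42). Both are made by T cells soon after they are triggered.

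Xcl1, a chemokine for cross-presenting dendritic cells (chr1:164931644-164935527), was at 178 CPM at 4 weeks and 85.8 CPM at 2 weeks (1.05, 0.74 to 1.37). Single cells held 23.5% of its UMIs at 4 weeks and 35.9% at 2 weeks, but it was also found in 41.8% and 21.8% of members. Ltb, the lymphotoxin chain needed for lymphoid tissue, was at 672 CPM and 509 CPM (0.40, 0.27 to 0.54) and was found in 95.8% and 86.3% of members.

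Of 13 measured chemokine and homing receptors, which guide T cells into tissues and lymphoid organs, 5 were past 2-fold lower at 4 weeks, 7 past neither and 1, Ccr7, past 2-fold higher. Ccr2, the receptor for monocyte chemoattractants, was at 52.2 CPM at 4 weeks and 251 CPM at 2 weeks (-2.26, -2.56 to -1.97). Itga4, an integrin chain that binds VCAM-1, was at 164 CPM and 373 CPM (-1.19, -1.38 to -0.99).

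Cxcr3 stood apart from these, with 116 CPM at 4 weeks and 117 CPM at 2 weeks (-0.01, -0.31 to 0.29). Cxcr6, the receptor of resident memory cells (chr9:123806475-123811760), was at 137 CPM and 271 CPM (-0.99, -1.21 to -0.77), just short of 2-fold. After thinning, Cxcr6 was found in 34.3% of members at 4 weeks (28.3 to 40.8) and 67.3% at 2 weeks (57.8 to 75.8), against 0.200% of fibroblasts in the 4-week library and none of 500 in the 2-week library (exact upper limit 0.735%).

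Among 13 measured residency genes, 6 were past 2-fold lower and 1, Xcl1, past 2-fold higher, with a median of -0.99. Bhlhe40, a transcription factor of activated and resident T cells, was at 47.3 CPM at 4 weeks and 221 CPM at 2 weeks (-2.22, -2.54 to -1.91). The residency markers Cd69 and Itgae were past 2-fold in neither direction. Cd69, which holds cells in tissue by blocking S1PR1, was at 335 CPM and 321 CPM (0.06, -0.11 to 0.24), and Itgae, the CD103 chain, was at 13.0 CPM and 19.2 CPM (-0.55, -1.35 to 0.27). Itga1, of the same list, was at 10.3 CPM and 49.0 CPM in members with at least 2 Cd8a and Cd8b1 UMIs (-2.25, -3.10 to -1.45). In members with no such UMI it had 9 and 3 UMIs (0.89, -1.11 to 3.41).

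Of 16 measured transcription factors of effector and memory states, 3 were past 2-fold lower, 1 past 2-fold higher and 12 past neither. Id2, an inhibitor of E proteins that favours effector cells, was at 272 CPM at 4 weeks and 661 CPM at 2 weeks (-1.28, -1.43 to -1.13). Id3, its relative of memory cells, was at 127 CPM and 59.1 CPM (1.10, 0.73 to 1.49), although 1 cell held 53.5% of its UMIs at 2 weeks and the ratio was 0.47 without cycling members. The T-box factors differed less: Eomes was at 82.7 CPM and 80.8 CPM (0.03, -0.32 to 0.39), and Tbx21, which encodes T-bet, at 32.4 CPM and 52.5 CPM (-0.69, -1.18 to -0.20).

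Of 14 measured checkpoint and costimulatory receptors, 8 were past 2-fold lower at 4 weeks and none was past 2-fold higher, with a median of -1.31. Ctla4, which competes with CD28 for its ligands, was at 18.3 CPM at 4 weeks and 112 CPM at 2 weeks (-2.62, -3.12 to -2.14). Icos, a costimulatory receptor of activated cells, was at 42.1 CPM and 221 CPM (-2.39, -2.72 to -2.07), and Pdcd1, the PD-1 receptor, was at 15.3 CPM and 58.3 CPM (-1.93, -2.52 to -1.36). Cd28 itself, listed with T cell receptor signalling, was at 216 CPM and 536 CPM (-1.31, -1.48 to -1.15). Cd27, another costimulatory receptor, was at 168 CPM and 110 CPM (0.61, 0.33 to 0.90).

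Division genes had the lowest median of the lists. All 14 measured genes had ratios below 0, 12 of them past 2-fold, with a median of -2.61, and 10 of the 12 lowest genes by the naming rule act in division or DNA packaging. Mki67, the marker of cycling cells (chr7:135689784-135716361), was at 23.9 CPM at 4 weeks and 271 CPM at 2 weeks (-3.50, -3.91 to -3.11). Top2a, the topoisomerase of replicating chromosomes, was at 32.8 CPM and 256 CPM (-2.97, -3.33 to -2.62), and Birc5, the survivin of dividing cells, was at 6.34 CPM and 133 CPM (-4.39, -5.21 to -3.67).

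The other genes among the 12 lowest were Stmn1, a regulator of microtubules, at -3.17 (-3.43 to -2.92), Hist1h1b, a linker histone, at -3.13 (-3.47 to -2.80), and Cdk1, the mitotic kinase, at -3.23 (-4.15 to -2.40). Prc1, a spindle protein, was at -2.99 (-3.73 to -2.31), Kif11, a mitotic kinesin, at -3.55 (-4.58 to -2.65), Cdca8, a partner of survivin, at -3.97 (-4.93 to -3.12) and Ccnb2, a mitotic cyclin, at -4.21 (-5.33 to -3.26). Gzmb and Fasl complete the 12. A few cells held much of these UMIs at 4 weeks: 1 cell held 53.7% for Hist1h1b and 32.8% for Mki67.

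Cells with at least 2 UMIs over 7 cell cycle genes made up 3.81% of thinned members at 4 weeks (1.76 to 7.12) and 17.7% at 2 weeks (11.2 to 26), and without thinning 9.13% and 23.4%. Without these cells the median of division genes was -0.44, by the way they were chosen, and that of granule genes -0.56, while the naive and checkpoint lists gave 0.68 and -1.31.

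**Figure D2:**
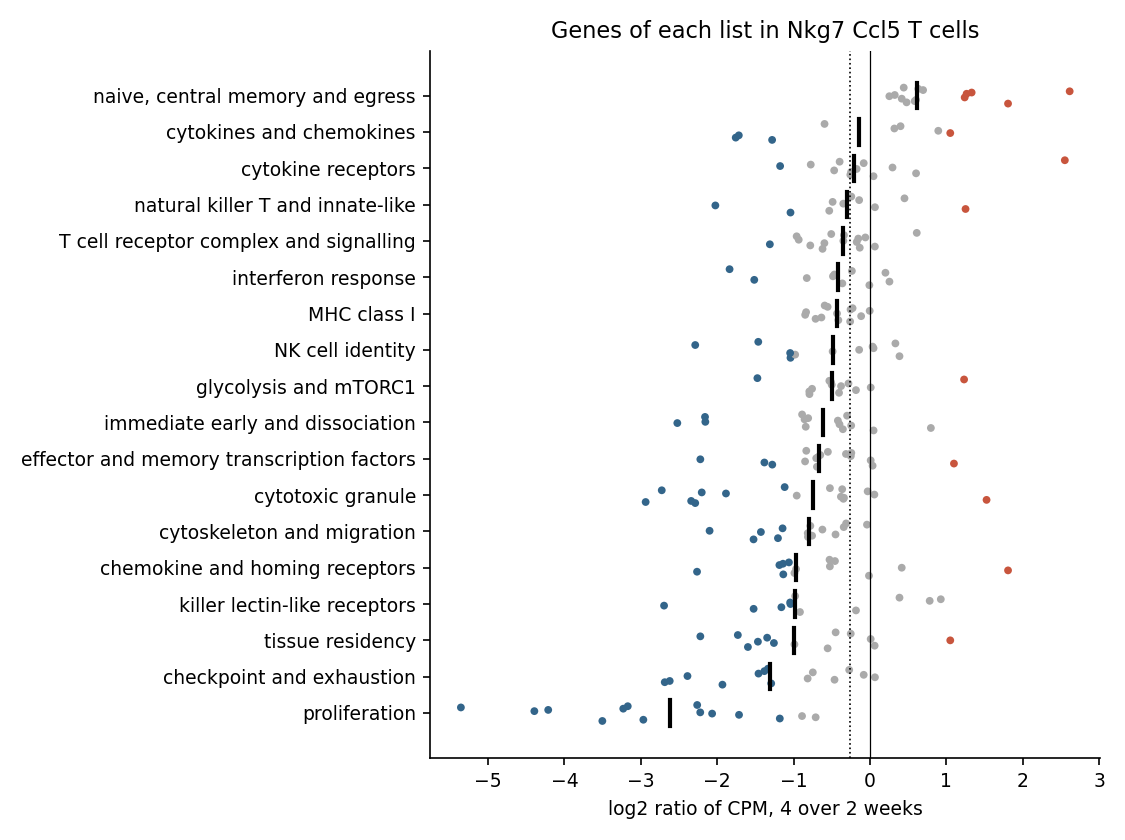
Each point is 1 measured gene of 18 lists in Nkg7 Ccl5 T cells, placed by its CPM at 4 weeks divided by that at 2 weeks (log2 axis). Red and blue points are genes past 2-fold higher and lower, black bars are list medians and the dotted line is the median of all 6775 genes at -0.27. The naive list lies to the right, with a median of 0.62, and division genes farthest left, with a median of -2.61.

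Few members held both Ccr7 and a granzyme. Granzymes at 4 weeks and Ccr7 at 2 weeks were in small shares of members, which alone keeps such an overlap small. Whether it was smaller than that was not tested. After thinning, Ccr7 was found in 30.1% of members at 4 weeks (24.3 to 36.4) and 3.54% at 2 weeks (0.973 to 8.82), against 0.200% of fibroblasts in the 4-week library and 0.400% in the 2-week library. Gzma, Gzmb or Gzmk was found in 15.7% at 4 weeks (11.3 to 21) and 58.4% at 2 weeks (48.8 to 67.6), against 1.00% and 2.20% of fibroblasts. The intervals of the libraries do not overlap for either share. Without thinning, a granzyme was found in 25.5% at 4 weeks and 62.9% at 2 weeks.

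Cells with a granzyme and also Ccr7 made up 2.54% at 4 weeks and 0.885% at 2 weeks. Members with Ccr7 and no granzyme made up 27.5% at 4 weeks and 2.65% at 2 weeks, and members with a granzyme and no Ccr7 13.1% and 57.5%. Cxcr6 stood beside Ccr7 in 7.63% of members at 4 weeks and in 0 of 113 at 2 weeks (exact upper limit 3.21%). The remainder, 56.8% at 4 weeks and 38.9% at 2 weeks, had neither a granzyme nor Ccr7. With Ccr7 in so few members at 2 weeks, its overlap with Cxcr6 there would be small in any case. A transcript missing from a thinned cell does not show that the cell lacked it.

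Per cell of 4900 UMIs, granule genes gave a median of 6 UMIs at 4 weeks (range 1 to 121) and 14 at 2 weeks (0 to 93). Naive and egress genes gave a median of 13 at 4 weeks (0 to 34) and 6 at 2 weeks (0 to 30). The ranges of the libraries overlapped widely for both sums, while their medians were in opposite order. Members with at least 20 Nkg7 and Ccl5 UMIs, away from the threshold, gave list medians of 1.07 for the naive genes and -0.83 for the granule genes, so both were larger than over all members.

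**Figure D3:**
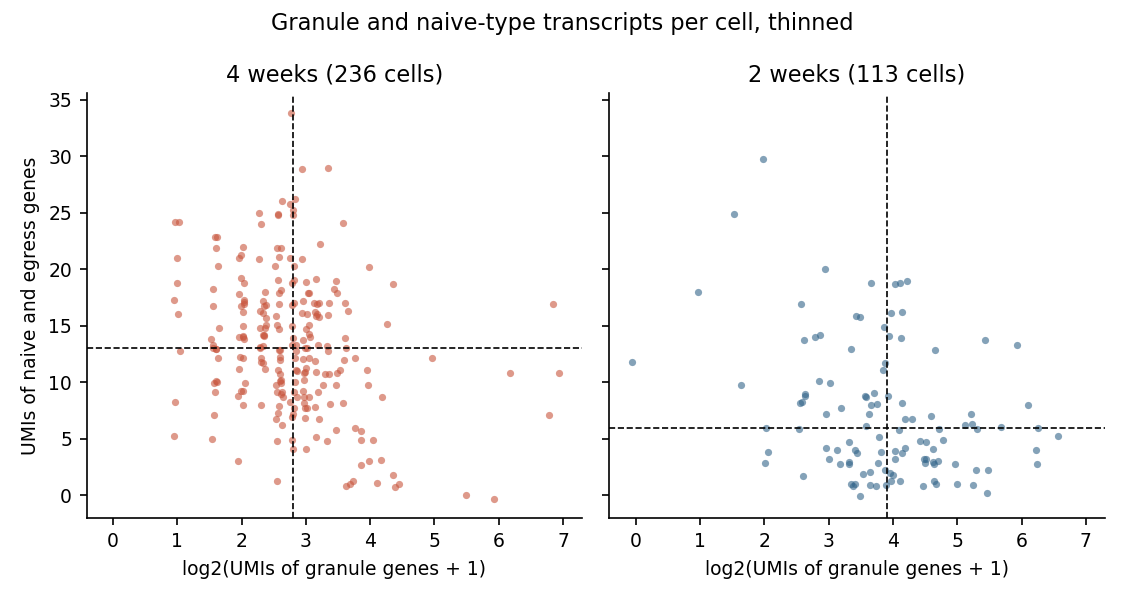
Each point is 1 Nkg7 Ccl5 T cell thinned to 4900 UMIs, with 236 cells at 4 weeks on the left and 113 at 2 weeks on the right; the x axis is log2 of granule UMIs plus 1 and the y axis UMIs of naive and egress genes, with a small jitter. Dashed lines are medians, at 6 granule and 13 naive UMIs at 4 weeks and 14 granule and 6 naive UMIs at 2 weeks.

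Members with and without CD8 were then compared with each other within the libraries, and this comparison was tested. CD8 members, with at least 2 Cd8a and Cd8b1 UMIs, numbered 189 at 4 weeks and 80 at 2 weeks, and CD8-negative members, with none, 63 and 35. Summed UMIs were fitted with edgeR's quasi-likelihood test with the library as a term, so the test rests on 2 libraries. Its p-values measure how unevenly the sets differ from library to library, once the library's own level is taken out. The NK-type cells and CD4 T cells described below were in the same fit and add to that spread. Of 6586 genes, 2 (0.0304%) were higher in CD8 members and 7 (0.106%) were lower at an adjusted p under 0.05 (Benjamini-Hochberg).

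Gzmk and Dapl1 were the genes that rose in CD8 members. Gzmk was at 33.3 CPM in CD8 members and 5.35 CPM in CD8-negative members at 4 weeks, and at 199 CPM and 20.2 CPM at 2 weeks, a log2 fold change of 3.14 (SE 0.429, edgeR adjusted p = 0.0202). Dapl1 was at 111 CPM and 7.13 CPM at 4 weeks, and at 37.4 CPM and 0 UMIs, which allows up to 8.66 CPM, at 2 weeks, with a fitted log2 fold change of 4.40 (SE 0.525, edgeR adjusted p = 0.00504). At 2 weeks only 3 CD8 members had a Dapl1 UMI, and 1 of them held 18. Of 16 granule genes, Gzmk alone passed the test.

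Klrb1c and Fcer1g, both listed with NK identity, were lower in CD8 members, while the other 16 of 18 genes of that list did not pass. Klrb1c, the NK1.1 antigen of NK and natural killer T cells (chr6:128778485-128789215), was at 5.88 CPM in CD8 members and 83.8 CPM in CD8-negative members at 4 weeks and at 3.87 CPM and 127 CPM at 2 weeks (log2 fold change -4.06, SE 0.378, edgeR adjusted p = 0.00151). It was found in 3.70% of CD8 members and 33.3% of CD8-negative members at 4 weeks, and 1.25% and 31.4% at 2 weeks. Fcer1g, the signalling adaptor of Fc receptors and NK receptors, was at 22.5 CPM and 194 CPM at 4 weeks and 28.4 CPM and 165 CPM at 2 weeks (-2.73, SE 0.326, edgeR adjusted p = 0.00504). At 2 weeks the shares of cells with Fcer1g were close, 22.5% and 22.9%, and 1 CD8-negative member held 22 of the 57 UMIs.

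Cd4, Maf and Ikzf2 were lower in CD8 members as well. Cd4, the helper coreceptor, was at 8.82 CPM in CD8 members and 60.6 CPM in CD8-negative members at 4 weeks and at 6.45 CPM and 156 CPM at 2 weeks (-3.42, SE 0.452, edgeR adjusted p = 0.0170). Maf, a transcription factor of helper and innate-like T cells, was at 24.5 CPM and 119 CPM, then 20.6 CPM and 153 CPM (-2.39, SE 0.304, edgeR adjusted p = 0.00776). Ikzf2, which encodes Helios, was at 51.4 CPM and 214 CPM, then 24.5 CPM and 266 CPM (-2.49, SE 0.386, edgeR adjusted p = 0.0336), and was found in 60.3% of CD8-negative members at 4 weeks. At 2 weeks 1 CD8-negative member held 41 of its 92 UMIs.

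The last 2 genes rest on fewer cells. Tnfrsf4, the costimulatory receptor OX40, was at 6.86 CPM in CD8 members and 37.5 CPM in CD8-negative members at 4 weeks and at 7.74 CPM and 98.2 CPM at 2 weeks (-2.85, SE 0.449, edgeR adjusted p = 0.0348). Nrgn had the largest fold change, -7.00 (SE 0.603, edgeR adjusted p = 0.000402), yet it was found in 3 CD8-negative members at 4 weeks and 3 at 2 weeks, 1 of which held 93 UMIs.

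By list, 2 of 18 NK identity genes, 3 of 12 natural killer T and innate-like genes, 2 of 17 transcription factors and 1 of 13 checkpoint genes fell in CD8 members, with list medians of -1.85, -0.99, -0.27 and -0.92 against 0.01 over all genes tested. None of 15 T cell receptor genes and none of 16 division genes passed. The counts were sensitive to the fit: DESeq2 gave 1 higher and 10 lower genes, and removing the cells with the highest Scrublet doublet scores gave 5 and 55. Without the library term the same test gave 0 and 5, and Dapl1, Gzmk, Ikzf2 and Tnfrsf4 no longer passed.

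The difference between times was not alike in CD8 and CD8-negative members, although the difference between them was not tested. CD8-negative members were also a different mix in each library, with Cd4 in 20.6% of them at 4 weeks and 51.4% at 2 weeks. The part of this mix in their ratios was not tested. In CD8 members Gzma was at 337 CPM at 4 weeks and 1862 CPM at 2 weeks, a log2 ratio of -2.47 (-2.60 to -2.34), and in CD8-negative members at 62.4 CPM and 52.0 CPM (0.26, -0.60 to 1.17). Klrc1 was at 47.5 CPM and 245 CPM in CD8 members (-2.37, -2.74 to -2.01) and at 123 CPM and 78.0 CPM in CD8-negative members (0.66, -0.0025 to 1.36). Klrg1 was at 14.7 CPM and 143 CPM in CD8 members (-3.28, -3.92 to -2.69), and in CD8-negative members 10 and 2 UMIs gave a ratio of 1.63 (-0.60 to 4.86).

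Xcl1 had ratios of 2.32 (1.76 to 2.93) in CD8 members, with 180 CPM at 4 weeks and 36.1 CPM at 2 weeks, and -0.32 (-0.78 to 0.15) in CD8-negative members, with 162 CPM and 202 CPM. The single cell that held the largest part of the Xcl1 UMIs at 2 weeks lay among the CD8-negative members, since CD8 members held only 28 in all. CD8-negative members held 70 there, so their ratio leans on that single cell. At 4 weeks CD8 members held 368 of the 477 Xcl1 UMIs and CD8-negative members 91. The single cell with the largest part at 4 weeks held more than those 91 and lay among the CD8 members. The ratio of CD8 members thus leans in part on 1 cell as well. Other genes ran the same way in both. Gzmb had ratios of -3.19 (-3.47 to -2.92) in CD8 members and -2.03 (-2.83 to -1.28) in CD8-negative members, and Fasl of -3.48 (-4.13 to -2.88) and -1.31 (-2.22 to -0.42). Ccr7 had ratios of 1.54 (0.99 to 2.14) and 2.26 (0.76 to 4.22), and Klf2 of 1.09 (0.86 to 1.32) and 1.55 (1.15 to 1.98).

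Cycling cells made up 6.88% of CD8 members at 4 weeks and 25% at 2 weeks, and 15.9% of CD8-negative members at 4 weeks (7.88 to 27.3) and 14.3% at 2 weeks (4.81 to 30.3). Among CD8-negative members the list medians of NK identity and killer lectin-like receptor genes were 0.25 and 0.35, opposite in sign to those over all members.

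**Figure D4:**
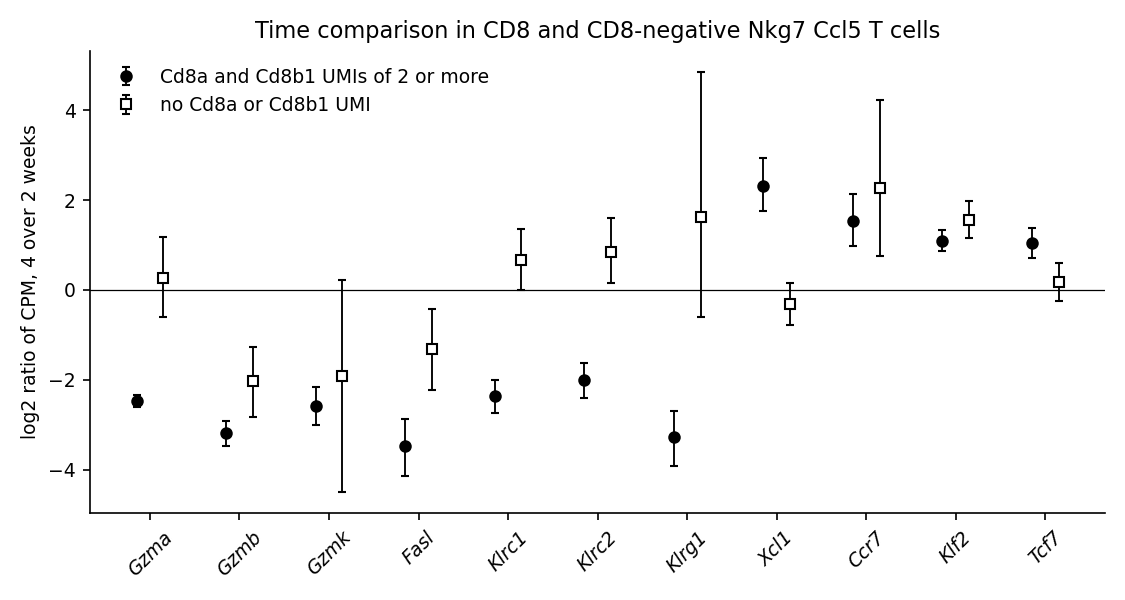
CPM at 4 weeks divided by that at 2 weeks (log2 axis) for 11 genes, with exact 95% intervals for counting error, in CD8 members (filled circles, 189 and 80 cells) and CD8-negative members (open squares, 63 and 35 cells). Gzma lies at -2.47 in CD8 members and 0.26 in CD8-negative members, while Gzmb, Fasl, Ccr7 and Klf2 lie on the same side of 0 in both. Cd4 was found in 20.6% of CD8-negative members at 4 weeks and 51.4% at 2 weeks.

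Members were set beside NK-type cells, with no CD3 UMI and at least 2 Nkg7 UMIs, which numbered 45 at 4 weeks and 14 at 2 weeks. The rule itself separates these sets, so the values are a description with no test. Of 7221 genes, 53 (0.734%) were past 2-fold higher in members in both libraries and 132 (1.83%) past 2-fold lower. All 3 coreceptor genes and 7 of 15 T cell receptor genes were higher in members, while 16 of 17 NK identity genes and 13 of 18 killer lectin-like receptors were lower.

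Cd8b1 was at 612 CPM in members and 5.53 CPM in NK-type cells at 4 weeks and at 754 CPM and 7.36 CPM at 2 weeks. Bcl11b, a transcription factor that commits cells to the T lineage, was at 234 CPM and 11.1 CPM at 4 weeks and at 260 CPM and 29.4 CPM at 2 weeks. Cxcr6 was also higher in members, at 137 CPM and 22.1 CPM, then 271 CPM and 36.8 CPM. On the other side, Ncr1, the NKp46 receptor that defines NK cells, was at 10.1 CPM in members and 481 CPM in NK-type cells at 4 weeks and at 5.83 CPM and 434 CPM at 2 weeks.

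Tyrobp, the DAP12 adaptor of NK receptors, was at 58.9 CPM in members and 1714 CPM in NK-type cells at 4 weeks and at 64.9 CPM and 1619 CPM at 2 weeks. Perforin and granzyme A were lower in members in both libraries. Prf1 was at 29.4 CPM in members and 279 CPM in NK-type cells at 4 weeks and at 37.5 CPM and 147 CPM at 2 weeks, and Gzma at 269 CPM and 5336 CPM, then 1314 CPM and 2708 CPM. Gzmk was the exception, at 26.5 CPM and 134 CPM in members with no UMI in NK-type cells of either library, so that its log2 ratio was at least 1.67 at 4 weeks and at least 2.60 at 2 weeks.

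Gzmb depended on the library: it was at 61.9 CPM in members and 957 CPM in NK-type cells at 4 weeks, and at 474 CPM and 625 CPM at 2 weeks. NK-type cells at 4 weeks also held 16258 CPM of haemoglobin Hbb-bs, against 41.4 CPM in members.

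**Figure D5:**
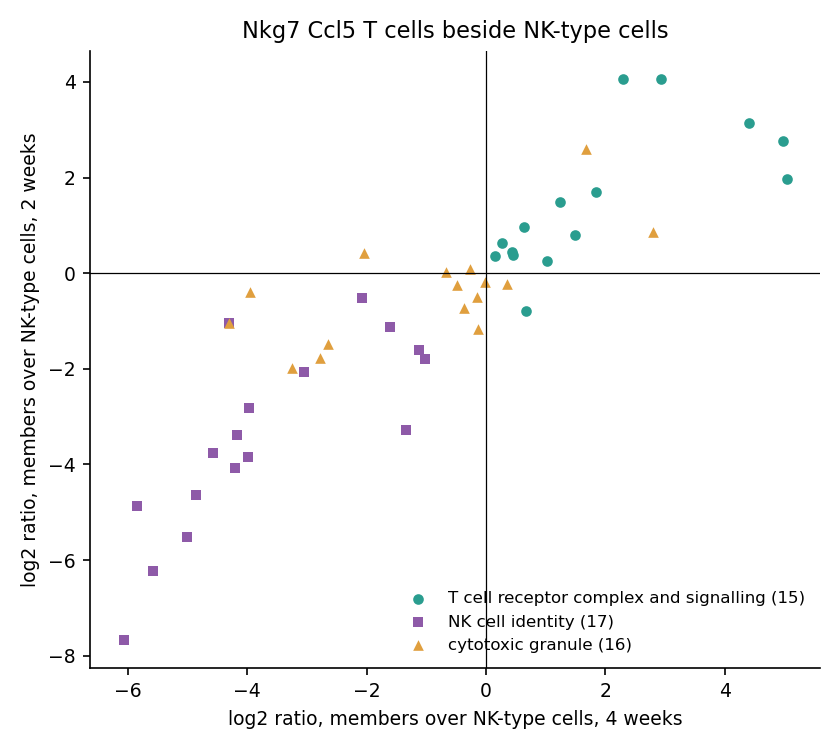
Log2 ratio of CPM in Nkg7 Ccl5 T cells over NK-type cells, at 4 weeks on the x axis and 2 weeks on the y axis, 1 point per gene, for 15 T cell receptor genes (circles), 17 NK identity genes (squares) and 16 granule genes (triangles). NK identity genes lie at the lower left, T cell receptor genes mostly in the upper right, and granule genes from the lower left to the upper right.

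Members were also set beside CD4 T cells, with 148 cells at 4 weeks and 16 at 2 weeks. That set had at least 2 CD3 UMIs, at least 1 Cd4 UMI and no Cd8a or Cd8b1 UMI. It was also limited to at most 1 UMI over Nkg7 and Ccl5 and at least 2 over Klf2 and S1pr1. CD4 T cells rich in Nkg7 and Ccl5 were thus kept out by the gate. Against the cells so gated, members had more of part of the granule genes and killer lectin-like receptors. Of 7630 genes, 53 (0.695%) were past 2-fold higher in members in both libraries and 60 (0.786%) past 2-fold lower, and these too are descriptions. Granule genes were higher in 8 of 16 and lower in none, and killer lectin-like receptors higher in 6 of 11 and lower in none. Klrd1 was at 183 CPM in members and 3.39 CPM in CD4 T cells at 4 weeks and at 208 CPM and 10.5 CPM at 2 weeks. Ly6c2, a surface protein of memory CD8 cells, was at 933 CPM and 4.24 CPM, then 1350 CPM and 0 UMIs, a log2 ratio of at least 5.43.

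Genes past 2-fold lower beside CD4 T cells included genes of neutrophils and other myeloid cells, which a few cells of the CD4 set carried. Il1b, the cytokine interleukin-1 beta, was at 0.745 CPM in members and 52.6 CPM in CD4 T cells at 4 weeks and at 13.3 CPM and 900 CPM at 2 weeks, and was found in 2.03% and 12.5% of CD4 T cells. S100a9, a calcium-binding protein of neutrophils, was at 7.83 CPM in members and 50.9 CPM in CD4 T cells at 4 weeks and at 9.16 CPM and 1067 CPM at 2 weeks. Both measured neutrophil markers were lower in members, with median log2 ratios of -2.11 at 4 weeks and -6.23 at 2 weeks, against 1.90 and 1.62 for granule genes. The part of such transcripts in the other values of this comparison was not tested.

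Transcripts of other cell types among members were counted for whole marker lists. Macrophage markers summed to 195 CPM at 4 weeks and 502 CPM at 2 weeks over 8 genes, with 12 and 56 members holding at least 5 UMIs, and Adgre1 at 0 at 4 weeks. Fibroblast markers summed to 2889 CPM and 1490 CPM over 6 genes. Single members held 1483 of the 7751 UMIs at 4 weeks and 651 of the 1790 at 2 weeks. Dendritic cell markers summed to 592 CPM and 245 CPM over 9 genes, and 1 member at 4 weeks held 502 UMIs.

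B cell markers summed to 115 CPM at 4 weeks and 38.3 CPM at 2 weeks, with Cd79a at 0 by the rule. Thymocyte markers, which matter because these libraries also hold thymus-type cells, summed to 93.5 CPM and 208 CPM, with Rag1, Rag2 and Ptcra at 0 by the rule. Neutrophil, smooth muscle, erythroid and endothelial markers each summed to under 82 CPM in both libraries, and Kdr and Emcn were at 0. Without the members that held at least 5 UMIs of Dntt, Lyz2, Col1a1 or haemoglobin, which left 244 members at 4 weeks and 102 at 2 weeks, no list of T cell genes changed the sign of its median, while those of the fibroblast and dendritic cell markers turned to -0.22 and -0.42.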

How the data were processed

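The authors deposited UMI counts per gene and barcode, without normalisation; per the file headers Cell Ranger 4.0.0 made them, and the submitters' processing notes name mm10 as the build. Libraries held 8565 barcodes and 83753250 UMIs at 4 weeks, and 5864 barcodes and 78773018 UMIs at 2 weeks. Kept barcodes had at least 300 genes and 500 UMIs, with up to 10% of UMIs from mitochondrial genes. No doublet was removed. As an alternative, the cells with the highest Scrublet scores were removed at 0.8% per 1000 barcodes, a setting here called without doublets. It would remove 17 members at 4 weeks and 10 at 2 weeks, while Scrublet's own threshold called 10 and 0. The deposited counts held no T cell receptor constant genes, so none could be used here. Gene positions come from GENCODE M21 in mm10, 1-based, with 27645 of 27998 identifiers matched, and promoters from RefSeq, which held 6 of 8 genes asked for and not Ccl5 or Ccr7.

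The members, and the 28 gene lists (326 of 330 genes in the table), were chosen with earlier results of these data known. Genes that are not reported here were left out of the lists, their counts and the named genes. UMIs were summed over members and scaled to CPM. Ratios of 4 weeks over 2 weeks carry exact conditional binomial intervals and shares exact Clopper-Pearson intervals, both at 95% and for counting error only; a count of 0 in a sum was read as allowing 3 UMIs. Genes needed 50 UMIs. CD8 and CD8-negative members were compared with edgeR 4.0.16 (limma 3.58.1, R 4.3.3) on UMIs summed per library and set, with NK-type cells and CD4 T cells in the same fit, TMM scaling and filterByExpr. That comparison, and a minimum of 10 in place of 20 cells per set, were chosen after seeing the data. DESeq2 1.42.0 was an alternative. Scripts were tested on simulated data. Other tools were Python 3.11.15, numpy 2.4.6, pandas 2.3.3, scipy 1.17.1, scanpy 1.11.5 and matplotlib 3.10.9. Between times, named genes were the 12 highest and 12 lowest ratios past 2-fold with at least 50 CPM in either library, found in at least 10% of members of the higher library, with no cell holding over 20% of the UMIs there and a level of at least 0.5 times that of all other cells. Between CD8 and CD8-negative members they were those at adjusted p under 0.05 with at least 50 CPM in the higher set and the same sign in both libraries. Members of the lists could also be named. Genes without a proper name, sex-linked genes and those for haemoglobin, ribosomal proteins or the mitochondrial genome could not be named. Klrg1, Gzma and other genes split by cycling cells were singled out after their values were seen, as was Hbb-bs.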

Additional observations from a re-analysis of the deposited data

How the results depend on the processing

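The share of members was 4.76% at 4 weeks with at least 5 Nkg7 and Ccl5 UMIs, and 2.43% at 4 weeks and 1.81% at 2 weeks with at least 20. The share with CD8 was 78.6% at 4 weeks with at least 5 and 78.4% at 2 weeks with at least 20. Genes past 2-fold higher numbered 373 (284 lower) with totals that leave out mitochondrial and ribosomal protein genes, 357 (304 lower) with TMM, 313 (838 lower) with a minimum of 20 UMIs, 121 without doublets, and, as alternatives added after seeing the data, 123 without cycling members, 111 without members holding other cells' transcripts and 41 (151 lower) in CD8-negative members. The cause was not tested, except that fewer members and a lower minimum change how many genes are tested.

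In CD8-negative members alone the sign turned for the list medians of NK identity (0.25), killer lectin-like receptors (0.35) and dendritic cell markers (-0.33), and for Gzma (0.26), Id3 (-0.72), Klrc1 (0.66), Klrc2 (0.85), Klrg1 (1.63) and Xcl1 (-0.32). Klrd1, whose interval over all members spans both signs, was at 1.12 (0.58 to 1.70) in CD8-negative members. For Id3 and Xcl1 the turn leans on single cells of the CD8-negative set at 2 weeks. That set held 51 Id3 and 70 Xcl1 UMIs there, against 18 and 28 in CD8 members. The share of CD8-negative members with Cd4 also differed between the libraries. Dendritic cell markers also turned without doublets (-0.20) and without members holding other cells' transcripts (-0.42), as did fibroblast markers in that setting (-0.22).

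The CD8 comparison was added after seeing the data, with all its alternatives. It gave 1 higher gene in DESeq2, 26 higher and 38 lower with no filter on low counts, 14 and 31 with only these sets in the fit, and 5 and 55 without doublets. With no replicate block, that is without the library term that pairs the sets of a library, edgeR gave 0 higher and 5 lower genes, with 53 and 76 at an unadjusted p under 0.05, Cd8a and Cd8b1 included. Gzmk missed the threshold in DESeq2 (adjusted p = 0.0623). Within single libraries all 9 named genes kept their direction where a ratio could be had: the log2 ratio ranged from 2.64 to 3.30 for Gzmk, -2.89 to -2.29 for Maf, -3.44 to -2.06 for Ikzf2, -3.11 to -2.54 for Fcer1g, -3.66 to -2.45 for Tnfrsf4, -4.60 to -2.78 for Cd4, -5.04 to -3.83 for Klrb1c and -7.85 to -6.82 for Nrgn, and was 3.96 for Dapl1 at 4 weeks. Planned tests of members against NK-type, CD4 and naive-like CD8 T cells were not run, because these sets held 14, 16 and 8 cells at 2 weeks, under the minimum of 20.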
